A study of Homo sapiens with 6 samples.

Results

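The arrays numbered replicate 2 were compared with those numbered replicates 1 and 3 in SH-SY5Y cells, an established human neuroblastoma line of sympathetic, noradrenergic character that is widely used as a neuronal model. The series holds 6 arrays, 2 for each replicate number: 1 from cells transfected with an anti-miR against hsa-miR-137 and 1 from cells transfected with Anti-miR Negative Control #1. Both groups received 15 pM anti-miR (the unit as the labels write it) with Lipofectamine RNAiMAX 24 hours after seeding, and total RNA was taken 72 hours later. The members are the 2 replicate 2 arrays, chosen by the number in their titles, and every comparison was made over 45278 probe sets with 1 gene symbol, which represent 18244 genes. The labels do not say whether a number marks a culture, a day or a labelling round, so each p-value speaks only of how these arrays scatter, and that scatter may be technical.

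An anti-miR is a synthetic oligonucleotide that pairs with a mature microRNA and blocks it; the microRNA otherwise represses mRNAs through its seed, bases 2 to 8. The inhibited strand is shown because all cells of 1 group received its inhibitor, with the seed in capitals, from RefSeq (GRCh38.p14, chr1:98046091-98046113, minus strand).
hsa-miR-137-3p: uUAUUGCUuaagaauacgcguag
No probe set used here measures this strand, so its inhibition was not checked. Cells of one line also differ between cultures without any treatment: density, time since feeding, oxygen and cell cycle position move genes of growth, hypoxia and differentiation, and neuroblastoma lines can shift between a noradrenergic and a mesenchymal state. Genes that peak or dip in a single replicate number are described here. Whether they reflect the cells or technical scatter was not tested.

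The 2 replicate 2 arrays did not resemble each other the way the other pairs did. Over all probe sets the root mean square difference between arrays of the same number was 0.166 log2 units for replicate 1 and 0.169 for replicate 3, but 0.201 for replicate 2. The anti-miR-137 array of replicate 2 lay closer to the arrays of replicate 1 (0.193 and 0.199), and the control array of replicate 2 lay closest to the control array of replicate 3 (0.184). Median log2 values of all 6 arrays lay between 6.39 and 6.43 and RNA integrity numbers between 9.5 and 9.8, with 9.7 and 9.8 for replicate 2. The difference between the 3' and 5' control probe sets of *GAPDH* was 0.213 and 0.220 log2 units in replicate 2 and 0.228 to 0.243 elsewhere, and that of *ACTB* was 1.81 and 1.87 against 1.68 to 1.86. The Alu control probe set read 15.17 and 15.20 in replicate 2 and 15.10 to 15.17 elsewhere. The part of these small differences in the results was not tested.

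**Figure D1:**
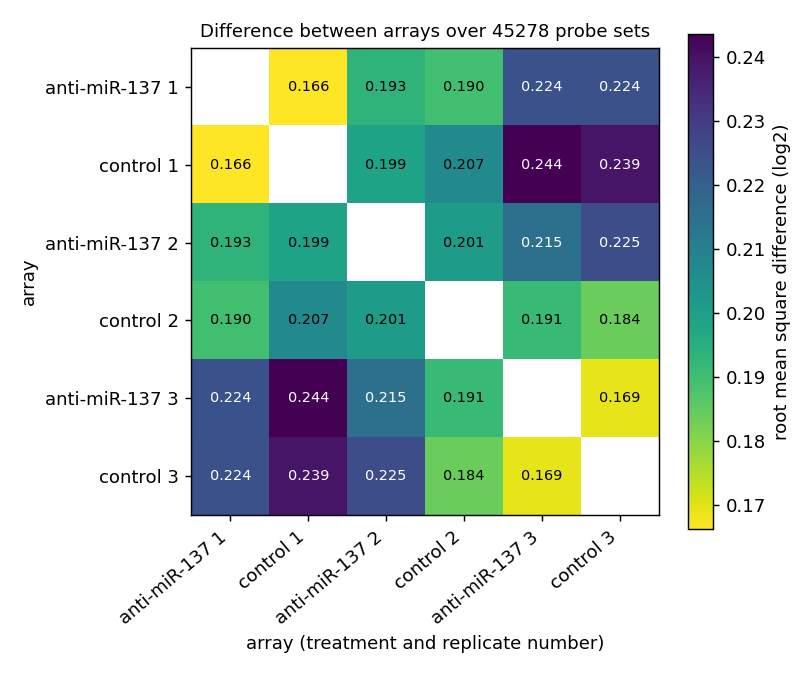
Root mean square difference in log2 value between each pair of the 6 arrays over 45278 probe sets; both axes list the arrays by treatment and replicate number, and darker cells mark more unlike pairs. The pairs of replicates 1 and 3 are the most alike (0.166 and 0.169), while each replicate 2 array is nearer to some array of another number (down to 0.193 and 0.184) than to its pair (0.201).

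Markers of the labelled cell type were present. All 9 of the noradrenergic markers found were above the level filter used here (a log2 value of 5.69, the 40th percentile of probe set means), and their summed log2 level was 110.6 and 111.1 in replicate 2 against 110.1 to 110.9 elsewhere. Of 8 mesenchymal markers 6 were above it (60.6 and 60.9 in replicate 2 against 59.9 to 62.6), as were all 4 glial markers found (27.8 and 28.3 against 27.7 to 28.2), 0 of 3 epithelial markers (14.9 and 15.4 against 14.7 to 15.6) and 1 of 3 blood markers (16.7 and 16.9 against 16.4 to 17.3). In bulk RNA, fewer cells of a type and less RNA per cell cannot be told apart.

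Replicate 2 differed little from the mean of replicates 1 and 3. In limma, with treatment and replicate number in the model, 0 of 45278 probe sets passed an adjusted p of 0.05 (0% in each direction; smallest adjusted p 0.80). An unadjusted p under 0.05 was found for 2805 probe sets (6.2%), of which 1414 (3.12%) had higher and 1391 (3.07%) lower values in replicate 2. Both replicate 2 arrays lay above all 4 others for 2645 probe sets (5.84%) and below them for 2312 (5.11%), and both conditions together held for 980 (2.16%) and 905 (2%). A single probe set differed 2-fold, and 1.5-fold was reached by 11 higher and 20 lower probe sets. Between replicates 3 and 1, which share arrays with this comparison, 590 probe sets reached 1.5-fold, 3 passed the adjusted threshold (0.00221% higher, 0.00442% lower) and 8235 (18.2%) had an unadjusted p under 0.05. A replicate 2 difference had a 95% confidence interval of 0.198 log2 units to either side at the median, and 42846 probe sets (94.6%) had an interval inside 0.5 log2 units around 0.

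The count of calls depended on how the spread of a probe set was estimated. The median residual SD was 0.110 log2 units in the dimmest of 5 equal level classes of the probe sets, 0.123 in the next and 0.0496 in the brightest. With a variance prior that follows signal level, limma called 74 probe sets at an adjusted p under 0.05, 40 higher (0.0883%) and 34 lower (0.0751%), from 54 genes. Of these, 46 lay in the brightest class and 22 in the next. The direction of all 74 was kept when any 1 array was left out, and 23 were called in each of these 6 fits; the number called ran from 44 without the anti-miR-137 array of replicate 1 to 675 without the control array of replicate 2, and was 127 and 91 without the control array of replicate 1 and the anti-miR-137 array of replicate 2. The 74 were selected on these same arrays, so their kept direction largely follows from that choice and tests nothing. Below, "called" refers to this level-dependent prior. Under the constant prior no gene was called. Of the 24 genes named by rule (those with the smallest p among probe sets above the level filter and with both replicate 2 arrays outside the other 4), 16 were called on the probe set named, 10 higher and 6 lower. Those 24 were selected for these differences, so their separation from the other arrays describes them and tests nothing.

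The 12 higher genes named by rule are given by what their products do, adhesion and guidance first, a grouping made by hand and not tested. *PCDH20*, a non-clustered protocadherin, read 6.18 and 6.15 (log2, anti-miR-137 and control) in replicate 2, 5.65 and 5.75 in replicate 1, and 5.30 and 5.14 in replicate 3. Its difference was 0.71 log2 units (SE 0.082, 1.63-fold), and its other probe set gave 0.82. Both were called (limma adjusted p = 0.039 and 0.012), with SEs of 0.12 and 0.10 under the level-dependent prior. The probe set named had a mean of 5.70, barely above the level filter of 5.69, and both replicate 3 arrays lay below that filter. The other had a mean of 7.17. Replicate 2 stood above both other numbers in each treatment, and replicate 3 was lowest. *ROBO2*, a receptor for SLIT guidance proteins, read 9.12 and 9.12 in replicate 2 against 8.50 and 8.44 in replicate 1 and 8.79 and 8.76 in replicate 3, a difference of 0.50 (SE 0.067). All 3 of its probe sets were called, at 0.42 to 0.52. *TRO*, the adhesion protein trophinin, had the smallest difference of the 12 (0.39, SE 0.071) and was not called; 1 of its 4 other probe sets had an unadjusted p under 0.05. *PHLDB2*, which links microtubule ends to the cell cortex, read 9.78 and 9.72 in replicate 2 and 9.20 to 9.38 on the other 4 arrays (0.48, SE 0.069). It was called on 1 of its 6 probe sets, and the 5 others were also higher, at 0.034 to 0.36.

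Several secreted or secretory-granule proteins were in this group. *ENPP2*, the enzyme autotaxin that makes lysophosphatidic acid, read 8.54 and 8.39 in replicate 2, 7.89 and 7.66 in replicate 1, and 7.89 and 8.04 in replicate 3. Its difference was 0.59 log2 units (SE 0.098, 1.51-fold). Of the 3 other probe sets, the one at 0.61 had the same or nearly the same value on every array and adds little. The remaining ones gave 0.54 and 0.35. Both replicate 3 arrays lay a little above those of replicate 1 (by 0.20 on average), and replicate 2 lay above both numbers. *CHGB*, the granule protein chromogranin B, read 9.34 and 9.57 in replicate 2, 9.12 and 9.32 in replicate 1, and 8.82 and 8.98 in replicate 3 (0.39, SE 0.068). The lower replicate 2 array exceeded the highest of the others by little here, and on the brightest *CHGB* probe set the difference was 0.22, with 13.92 and 13.89 in replicate 2 against 13.54 to 13.82. Of its 4 probe sets 3 were called. *VSTM2A*, a secreted immunoglobulin-domain protein, read 8.56 and 8.66 in replicate 2, 8.56 and 8.48 in replicate 3 and 7.81 and 7.63 in replicate 1. Its difference of 0.49 (SE 0.082) rests on the low replicate 1 arrays, since replicate 3 reached the level of replicate 2; its other probe set, below the level filter, gave 0.086.

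Among the remaining higher genes, *EEF2*, the factor that moves the ribosome along mRNA, read 9.78 and 9.81 in replicate 2 against 9.06 to 9.21 on the other 4 arrays. The difference was 0.64 log2 units (SE 0.068, 1.56-fold; limma adjusted p = 0.80 with the constant and 0.0013 with the level-dependent prior). Its 7 other probe sets, all above the level filter, gave only 0.0039 to 0.24, so the size belongs to 1 of 8 probe sets although all 8 were higher. *HRK*, a pro-apoptotic BCL2-family protein, read 7.72 and 7.74 in replicate 2, 7.16 and 7.34 in replicate 1 and 6.95 and 7.05 in replicate 3 (0.61, SE 0.072), on its single probe set. *SLC44A3*, of the choline transporter-like family, read 8.94 and 8.87 against 8.53 and 8.52 in replicate 1 and 8.24 and 8.14 in replicate 3 (0.55, SE 0.068), and its other probe set gave 0.37; both were called. In these last genes the replicate 2 arrays were the highest and the replicate 3 arrays the lowest. *INSM2*, a zinc finger transcription factor, read 11.78 on both arrays of replicate 2, 11.24 and 11.29 in replicate 1, and 11.46 and 11.45 in replicate 3 (0.42, SE 0.068; the other probe set 0.38). *FAM13B* differed by 0.39 (SE 0.071) and was not called; its 2 other probe sets gave -0.27 and 0.16.

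**Figure D2:**
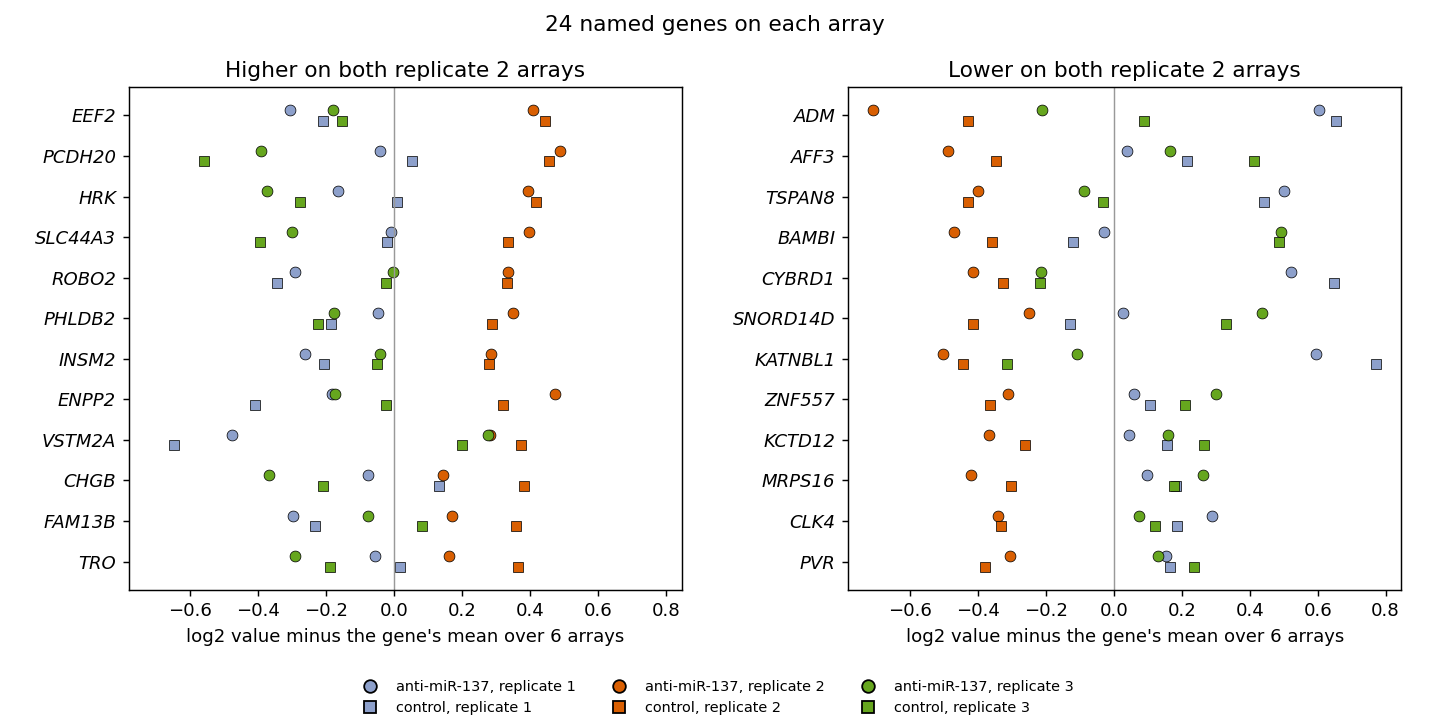
Log2 value of the 24 genes named by rule on each array, minus the gene's mean over the 6 arrays (horizontal axis); circles are anti-miR-137 arrays, squares control arrays, and colours the replicate numbers. The genes were chosen because both replicate 2 arrays (orange) lie outside the other 4; replicates 1 and 3 lie far apart for *ADM*, *CYBRD1*, *KATNBL1* and *VSTM2A* and close together for *PHLDB2*, *KCTD12* and *PVR*.

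Among lower genes, *ADM*, the vasodilator peptide adrenomedullin and a known target of the hypoxia-inducible factors, had the greatest difference. It read 8.05 and 8.32 in replicate 2, 9.36 and 9.41 in replicate 1, and 8.54 and 8.84 in replicate 3, a difference of -0.85 log2 units (SE 0.083, 1.81-fold lower; limma adjusted p = 0.80 with the constant and 0.0013 with the level-dependent prior). Both other probe sets were lower too, at -0.86 and -0.39, with both replicate 2 arrays below the rest. The gene was lower by 0.69 log2 units in replicate 3 than in replicate 1 as well, so replicate 2 was the lowest of 3 unlike levels. *BAMBI*, a pseudoreceptor that dampens TGF-beta and BMP signalling, read 7.29 and 7.41 in replicate 2, 7.73 and 7.64 in replicate 1 and 8.26 and 8.25 in replicate 3 (-0.62, SE 0.076), on its single probe set. *TSPAN8*, a tetraspanin of the cell surface, read 7.58 and 7.55 against 8.48 and 8.42 in replicate 1 and 7.89 and 7.95 in replicate 3 (-0.62, SE 0.070), also on 1 probe set. *AFF3*, a nuclear protein of the AF4 family of transcription elongation factors, read 6.86 and 7.004 in replicate 2 and 7.39 to 7.76 elsewhere (-0.62, SE 0.070). All 4 genes were called; of the 3 other *AFF3* probe sets 1 was above the level filter, at -0.35.

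The other lower genes rested more often on 1 probe set of several. *MRPS16*, of the small subunit of the mitochondrial ribosome, read 7.92 and 8.04 in replicate 2 and 8.44 to 8.61 elsewhere (-0.54, SE 0.077, called), but its 2 other probe sets gave -0.043 and -0.021. *CYBRD1*, a ferric reductase of iron uptake, read 6.29 and 6.37 in replicate 2, 6.49 on both arrays of replicate 3, and 7.22 and 7.35 in replicate 1 (-0.56, SE 0.071). Replicate 2 was thus only a little below replicate 3, and the 3 other probe sets of *CYBRD1* gave -0.024 to 0.00045. *KATNBL1*, a regulator of the microtubule-severing katanin, showed the same order of numbers, with 6.19 and 6.25, then 6.59 and 6.38, then 7.29 and 7.47 (-0.71, SE 0.097, called); its 3 others gave -0.48 to -0.0034. *PVR*, the nectin-like adhesion protein CD155, read 5.87 and 5.79 against 6.31 to 6.41 (-0.51, SE 0.074), with -0.099 to 0.0092 on its 3 others. *ZNF557*, a zinc finger gene, read 5.66 and 5.61 against 6.03 to 6.28 (-0.51, SE 0.072), with 0.052 and 0.11 on its 2 others, the opposite direction. *CYBRD1*, *PVR* and *ZNF557* were not called.

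For *KCTD12* and *SNORD14D* every probe set was lower, while those of *CLK4* were mixed. Neither *KCTD12* nor *SNORD14D* was called, and *CLK4* was not called on the probe set named. *KCTD12*, an auxiliary subunit of GABA-B receptors, read 7.04 and 7.15 in replicate 2 and 7.45 to 7.67 elsewhere (-0.47, SE 0.067), and its 4 other probe sets gave -0.29 to -0.11. *SNORD14D*, a small nucleolar RNA that guides ribosomal RNA modification, read 6.63 and 6.47 against 6.75 to 7.32 (-0.50, SE 0.068), and its other probe set gave -0.40. *CLK4*, a kinase of SR splicing factors, read 6.68 and 6.69 against 7.10 to 7.31 (-0.51, SE 0.072), and of its 8 other probe sets 5 were lower, 3 of them at an unadjusted p under 0.05, and 3 higher (-0.44 to 0.11 in all). Its brightest probe set, with 8.28 and 8.39 in replicate 2 and 8.62 to 8.85 elsewhere, differed by -0.44 and was called (limma adjusted p = 0.044).

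**Figure D3:**
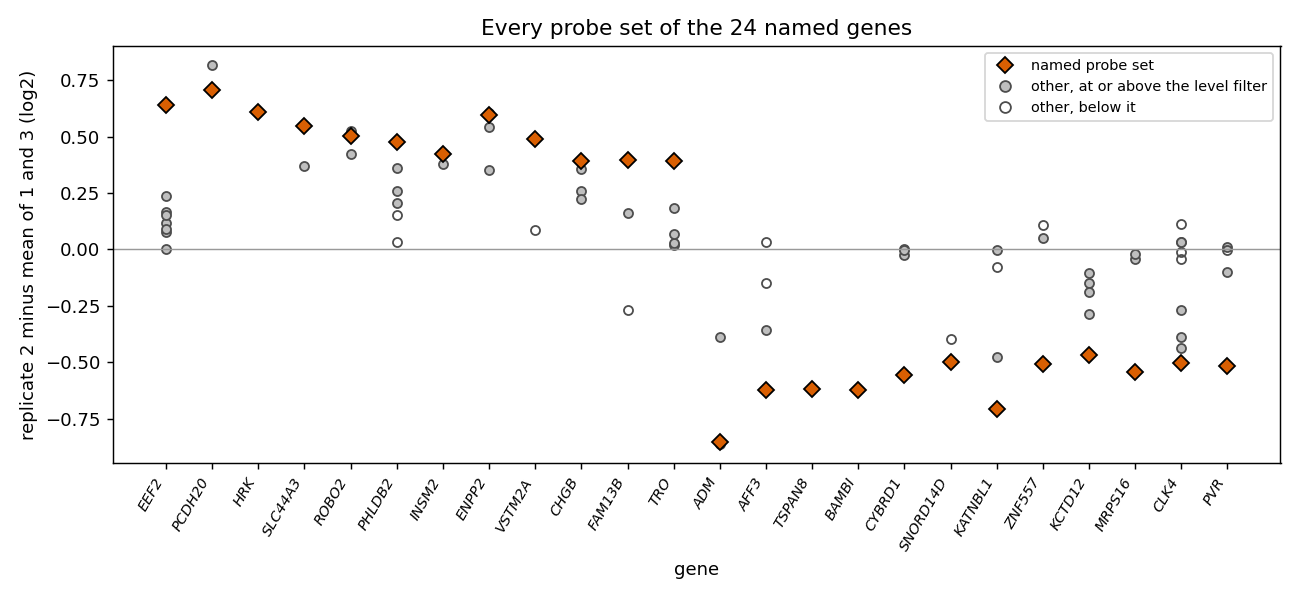
Replicate 2 minus the mean of replicates 1 and 3 (log2, vertical axis) for every probe set of the 24 genes named by rule; diamonds are the probe sets named, filled circles others at or above the level filter and open circles others below it. The other probe sets lie near the diamond for *ROBO2* and *INSM2*, and near 0 for *MRPS16*, *CYBRD1* and *PVR*.

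Among the 74 called probe sets, 30 had both replicate 2 arrays above and 28 both below all others, so 16 were not peaks or dips in this sense. *GRIP1*, a scaffold protein of glutamate receptors, was one of them (it and the next genes were chosen after their values were seen). It read 8.49 and 8.44 in replicate 2 and 8.57 and 8.62 in replicate 1, but 6.77 and 6.91 in replicate 3. Its difference of 0.75 log2 units came from replicate 3 alone. *NELL2*, a secreted neuronal glycoprotein, was its mirror image, with 8.26 and 8.15 in replicate 2, 8.54 and 8.70 in replicate 3, and 6.64 and 6.69 in replicate 1 (0.56). *SGK1*, a kinase induced by glucocorticoids and cell stress, read 10.00 and 10.06 in replicate 2, 10.12 and 10.03 in replicate 1 and 10.91 and 10.78 in replicate 3 (-0.43). In all 3 genes replicate 2 sat close to 1 of the other numbers.

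Some genes were called on several probe sets, or in every fit with an array left out. *NRCAM*, a neuronal cell adhesion molecule, was called lower on 3 of 5 probe sets; the brightest read 11.69 and 11.80 in replicate 2, 12.16 and 12.25 in replicate 1 and 11.81 and 11.92 in replicate 3 (-0.29). *CXCR4*, the receptor of the chemokine CXCL12, was called lower on 3 of 4, with 10.88 and 11.09 in replicate 2 and 11.14 to 11.44 elsewhere on the brightest (-0.35). On these probe sets of both genes the anti-miR-137 array was the lower of its pair in every replicate number, not only in replicate 2. *CD9*, a tetraspanin, was called higher on 4 of 9 probe sets, at 0.32 to 0.35. One of these read 11.003 and 10.99 in replicate 2, 10.92 and 10.89 in replicate 3, and 10.39 on both arrays of replicate 1, so replicates 2 and 3 were nearly level. *NNAT*, the imprinted gene neuronatin, read 11.02 and 11.19 in replicate 2 and 11.33 to 11.53 elsewhere (-0.33), and *KCNK1*, a background potassium channel, read 8.43 and 8.66 against 8.82 to 9.36 (-0.53). Both were called with every array left out in turn, each on 1 probe set.

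Without a call, agreement among probe sets also singled out a few genes, again chosen after their values were seen. Of 11825 genes with several probe sets, 83 had at least 2 that were separated upward at an unadjusted p under 0.05 and 104 at least 2 downward, while 29 genes had probe sets in both directions. *SDC2*, the heparan sulfate proteoglycan syndecan 2, was below the other arrays on 6 of 6 probe sets, with differences of -0.40 to -0.24; 1 of them was called. On that probe set it read 9.52 and 9.59 in replicate 2, 10.11 and 10.06 in replicate 1 and 9.71 on both arrays of replicate 3. *NR3C1*, the glucocorticoid receptor, was higher on 10 of 10 probe sets (0.072 to 0.34), 7 of them with both arrays above the rest, and none was called. On its brightest it read 8.74 and 8.76 in replicate 2 against 8.49 to 8.55. *FOXP1*, a forkhead transcription factor, was separated downward at an unadjusted p under 0.05 on 5 of 12 probe sets, and *VCAN*, a matrix proteoglycan, on 4 of 9.

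Among 25 gene lists, each gene on its brightest probe set, no member passed the adjusted threshold with the constant prior. Over all 18244 genes, 972 (5.33%) had an unadjusted p under 0.05, 495 (2.71%) with higher and 477 (2.61%) with lower values. Both replicate 2 arrays lay above the others for 1064 genes (5.83%) and below them for 926 (5.08%), 340 (1.86%) and 309 (1.69%) of these at such a p, and the median difference was 0.0029 log2 units. With the level-dependent prior 23 genes (0.126%) were called higher and 20 (0.11%) lower on these probe sets. List counts are described beside these values and were not tested as lists. Beyond the 3 members of a list with the smallest p, the members named below were picked with their values seen, to show the range within the list.

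TGF-beta and BMP genes had the greatest lower share of the lists with more than 8 genes, and their members act at several steps. Of 30 genes, 7 (23.3%) had lower and 0 higher values at an unadjusted p under 0.05, 4 had both replicate 2 arrays below the rest, and the list median was -0.047 log2 units (-0.081 within anti-miR-137 and -0.083 within control arrays). Among ligands, *BMP2* differed by -0.27 and *BMP7* by -0.21, with replicate 2 overlapping the other arrays for both. Among signal transducers, *SMAD3* read 8.06 and 7.97 in replicate 2 and 8.13 to 8.39 elsewhere (-0.26, SE 0.068). The inhibitors *BAMBI*, above, and *SMAD6* (-0.44) were lower too, the latter with 7.70 and 8.13 in replicate 2 across a range of 8.004 to 8.83. The target genes *ID2* and *ID4*, which block bHLH transcription factors, differed by -0.35 and -0.25. *ID2* read 11.13 and 11.28 in replicate 2, near replicate 1 (11.34 and 11.25) and below replicate 3 (11.69 and 11.97). *BAMBI* and *ID2* were called. *ID1* (-0.13) and *ID3* (-0.10) lay within the other arrays. The receptor gene *ACVR1* had both arrays below the rest by little (-0.10).

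Hypoxia and glycolysis genes gave 5 of 37 (13.5%) lower and 0 higher at an unadjusted p under 0.05, with 6 genes below and 2 above all other arrays and a median of -0.042. *ADM* and *DDIT4*, an mTORC1 inhibitor induced by hypoxia and other stress, were called. *DDIT4* read 9.91 and 10.28 in replicate 2, 10.48 and 10.42 in replicate 1 and 10.57 and 10.76 in replicate 3 (-0.46, SE 0.10). *EGLN3*, an oxygen-sensing prolyl hydroxylase, read 6.89 and 7.35 against 7.14 to 7.77 (-0.43), and *STC2* (-0.25) and *ANGPTL4* (-0.20) were the other lower members. Other textbook targets of the same factors stayed near 0: *VEGFA* differed by -0.0047 (12.67 and 12.93 in replicate 2 inside a range of 12.48 to 13.01), *BNIP3* by -0.043 and *NDRG1* by 0.014. For *ADM*, *DDIT4* and *EGLN3* the anti-miR-137 array was the lower of its pair in both replicate 2 and replicate 3.

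Noradrenergic identity genes gave more peaks than dips, by small amounts. Both replicate 2 arrays were above the rest for 9 of 37 genes (24.3%) and below for 3, with a median of 0.051 (0.047 within anti-miR-137 and 0.046 within control arrays), while 4 genes (10.8%) were higher and 1 lower at an unadjusted p under 0.05. *HAND1*, a bHLH factor of sympathetic development, read 9.03 and 8.93 in replicate 2 and 8.54 to 8.80 elsewhere (0.30, SE 0.068). *PRPH*, the intermediate filament peripherin, differed by 0.27, and *SLC18A2*, the vesicular monoamine transporter, by 0.40 with overlap, since replicate 3 read 7.42 and 7.59 against 7.43 and 7.76. The enzymes of catecholamine synthesis did not move together: *DDC* differed by 0.16 and *DBH* by 0.15, with replicate 2 above the rest, and *TH* by -0.082. Core factors differed by 0.15 (*PHOX2A*), 0.13 (*ISL1*) and 0.057 (*HAND2*), each under 2 SE, but *GATA2* by 0.032, *GATA3* by -0.017 and *TFAP2B* by -0.069. The lower member was *TBX3*, a T-box factor (-0.27), with 9.70 and 9.99 in replicate 2 between 9.67 and 9.66 in replicate 1 and 10.49 and 10.68 in replicate 3. Of this list only *CHGB* was called. The mean deviation over the list was 0.0052 and 0.060 in replicate 2, 0.017 and 0.030 in replicate 3, and -0.068 and -0.045 in replicate 1, so replicate 2 was not apart from replicate 3 as a whole. The mesenchymal list had 2 of 41 higher, 3 lower and a median of -0.025.

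Neuronal cytoskeleton and differentiation genes had 6 of 49 (12.2%) lower and 2 higher at an unadjusted p under 0.05. *CELF4*, a neuronal RNA-binding protein, read 9.07 and 8.96 in replicate 2 and 9.25 to 9.47 elsewhere (-0.37, SE 0.077), and it was called with *NRCAM* (lower) and the axonal adhesion protein *CNTN1* (higher, 0.30). The neurofilament genes followed the rise from replicate 1 to 3: *NEFM* read 8.39 and 8.39, then 8.30 and 8.91, then 9.53 and 9.72, and *NEFL* 11.51 and 11.66, 11.63 and 11.80, 12.23 and 12.27. Their differences of -0.40 and -0.21 thus reflect high replicate 3 arrays and are no dip.

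Growth and cell cycle lists had few members at an unadjusted p under 0.05. G1/S and DNA replication genes had 39 of 50 lower values and 3 lower at an unadjusted p under 0.05 (*E2F8*, *CCNE2* and *ORC1*). Their mean deviation was -0.035 and -0.036 log2 units in replicate 2, between -0.16 and -0.24 in replicate 1 and 0.25 and 0.22 in replicate 3. Cytosolic ribosomal protein genes had 0 of 68 and proteasome genes 0 of 34 at an unadjusted p under 0.05, and oxidative phosphorylation genes 0 of 71, although both arrays lay below the rest for 10 of these 71 (14.1%) by at most 0.11. Cholesterol synthesis genes had 0 of 28 and heat shock genes 0 of 23, the latter with 19 lower values and a median of -0.052. Replication-dependent histones had 3 of 20 higher (*H2AC6*, *H2BC12* and *H2BC8*, 0.17 to 0.22). Splicing factors had 3 of 39 lower (*CLK4*, *CLK1* and *U2AF2*), and long non-coding host RNAs had 8 of 8 lower values, 2 of them at an unadjusted p under 0.05, *SNHG17* and *SNHG12*. Their list mean was as low in replicate 3 as in replicate 2, but *SNHG17* and *SNHG12* themselves were level in replicates 1 and 3 and lower in replicate 2 (-0.19 and -0.22). Olfactory receptor genes, of which 29 of 334 were above the level filter, had 7 higher and 8 lower and serve as a reference for dim signals.

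p53 targets had 4 of 29 (13.8%) lower, among them *PLK2* (-0.34) and the death receptor gene *TNFRSF10B* (-0.21), and 1 higher, *EDA2R* (0.28). As a whole the list was not lower: 18 genes had higher values and the median was 0.021 (-0.035 within anti-miR-137 and 0.049 within control arrays). *TP53I3*, another of the 4 (-0.34), read 8.46 and 8.73 in replicate 2, near replicate 1 (8.58 and 8.53) and below replicate 3 (9.40 and 9.20). Interferon genes had 3 of 40 higher; *USP18*, which restrains interferon signalling, differed by 0.54 only because replicate 3 was low (6.39 and 6.65 against 7.76 to 8.09 on the other arrays). Among immediate early genes 7 of 44 (15.9%) had both arrays below the rest, by small amounts, and 1 above. That gene was *EGR1*, a growth-factor-induced transcription factor, called at 0.76 on its brightest probe set.

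**Figure D4:**
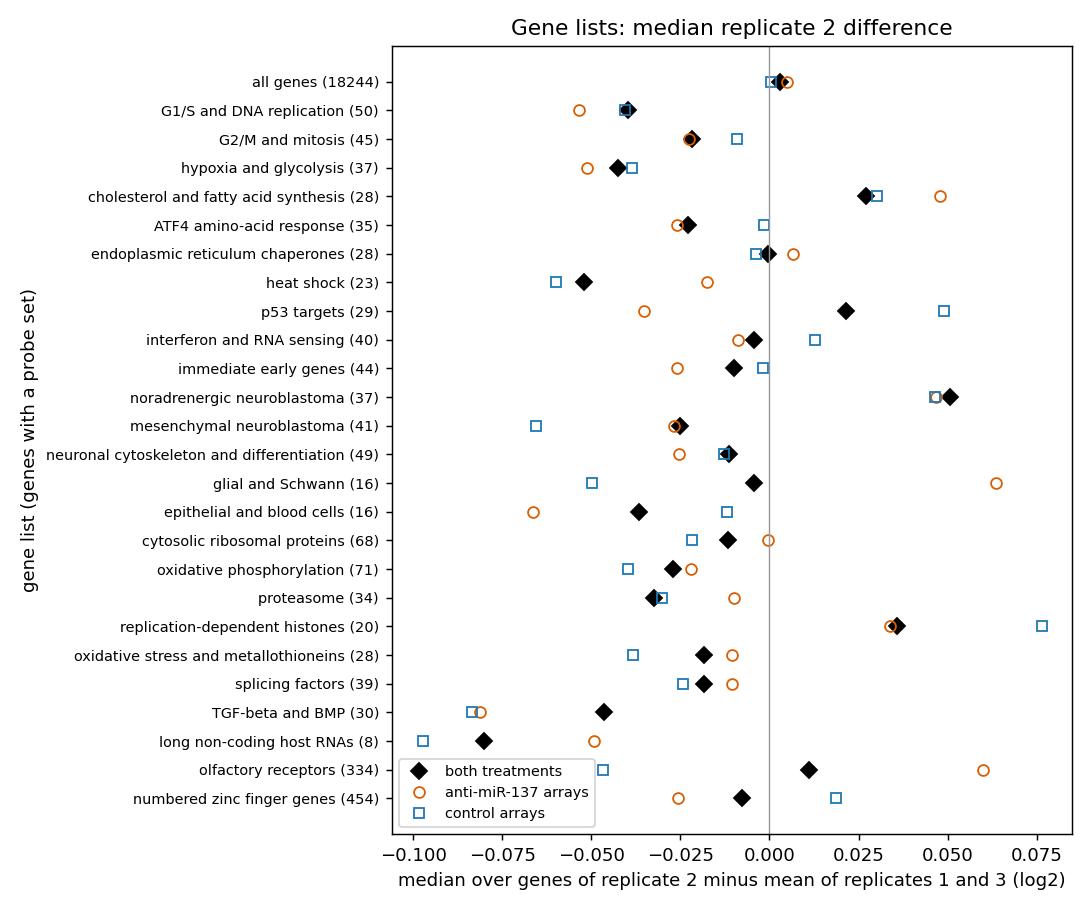
Median over the genes of each list (vertical axis, with the number of genes) of replicate 2 minus the mean of replicates 1 and 3 (log2, horizontal axis), over both treatments (diamonds) and within anti-miR-137 (circles) and control arrays (squares). All medians lie within 0.1 log2 units of 0, and those of the TGF-beta and BMP and noradrenergic lists are alike in the 2 treatments. Several lists have opposite signs in anti-miR-137 and control arrays. Examples are the olfactory receptors (0.060 and -0.047), glial and Schwann genes (0.064 and -0.050) and p53 targets (-0.035 and 0.049).

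Across probe sets, the replicate 2 differences of the 2 treatments showed no relation to each other. The difference within anti-miR-137 arrays and that within control arrays had a correlation across 45278 probe sets of -0.0099 (0.040 for those above the level filter) and the same sign for 49.6% of probe sets, against 0.50 (0.66) and 65.7% for replicate 3 minus replicate 1. These are descriptions over probe sets, which share arrays and are not independent. The treatment by replicate 2 term of the model tests the unlikeness directly. It called 0 probe sets with the constant prior (3871, or 8.55%, at an unadjusted p under 0.05; smallest adjusted p 0.56) and 215 (0.475%), from 168 genes (0.921%), with the level-dependent prior, on 1 residual degree of freedom. For 199 of the 215 the anti-miR-137 difference was below the control one, and for 190 the differences had opposite signs. With 1 array per treatment and number, a treatment effect particular to replicate 2 and an array that stands apart cannot be told apart.

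A few of these genes, chosen after their values were seen, are given as examples. *SON*, a nuclear speckle protein, read 7.89 on the anti-miR-137 array of replicate 2 and 9.20 on the control array, while the other 4 arrays read 8.78 to 9.16, on 1 of its 3 probe sets. *DHX9*, an RNA helicase, went the other way, with 9.58 and 8.16 against 8.37 to 8.58, also on 1 of 3. *SRSF5*, an SR splicing factor, was called on 8 of its 11 probe sets. One of them read 10.25 and 10.95 in replicate 2 and 10.46 to 10.73 elsewhere, so there the replicate 2 arrays lay on opposite sides of the rest. This did not hold for all 8. Another read 9.42 and 10.09 against 9.11 to 9.59, with only the control array outside. A further one read 7.57 and 8.65 against 8.36 to 8.82, with only the anti-miR-137 array outside. *SERPINH1*, a collagen chaperone, and *DDOST*, of the oligosaccharyltransferase, were called on 3 of 3 probe sets each, and the chaperone *HSPA5* on 3. On its top probe set *DDOST* read 10.92 and 11.67. Of the lists, splicing factors had 4 of 39 genes with a called probe set (10.3%), endoplasmic reticulum chaperones 2 of 28 (7.14%), proteasome genes 2 of 34 (5.88%), immediate early genes 2 of 44 (4.55%) and numbered zinc finger genes 9 of 454 (1.98%). In all, 12 of the 25 lists had at least 1 gene with a called probe set. The other 13, noradrenergic, hypoxia and oxidative phosphorylation genes among them, had 0. In short lists 1 gene already gives a share above the 0.921% of all genes, as for cytosolic ribosomal proteins (1 of 68, 1.47%). The 0.921% also covers dim genes, whereas 201 of the 215 called probe sets were above the level filter. On the brightest probe set, 12639 of 18244 genes were above it, against all 39 splicing factors and 27 of 28 chaperone genes. A gene with many probe sets, such as *SRSF5* with 11, also has more chances to be counted. A share above 0.921% therefore singles out no list.

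The 482 other probe sets of the 168 genes gave a mixed picture: 309 had the same sign as the called one, with a median of 0.071 log2 units in that direction, against a median size of 0.72 for the called. *EGR1* combined both patterns. It read 7.17 and 8.07 in replicate 2 and 6.44 to 6.78 elsewhere on the probe set with the 2-fold difference (1.00, SE 0.21), so both arrays were high but the control array was higher by 0.91 log2 units. Its 5 other probe sets were also higher in replicate 2, at 0.043 to 0.76, and 4 of all 6 had both arrays above the rest.

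**Figure D5:**
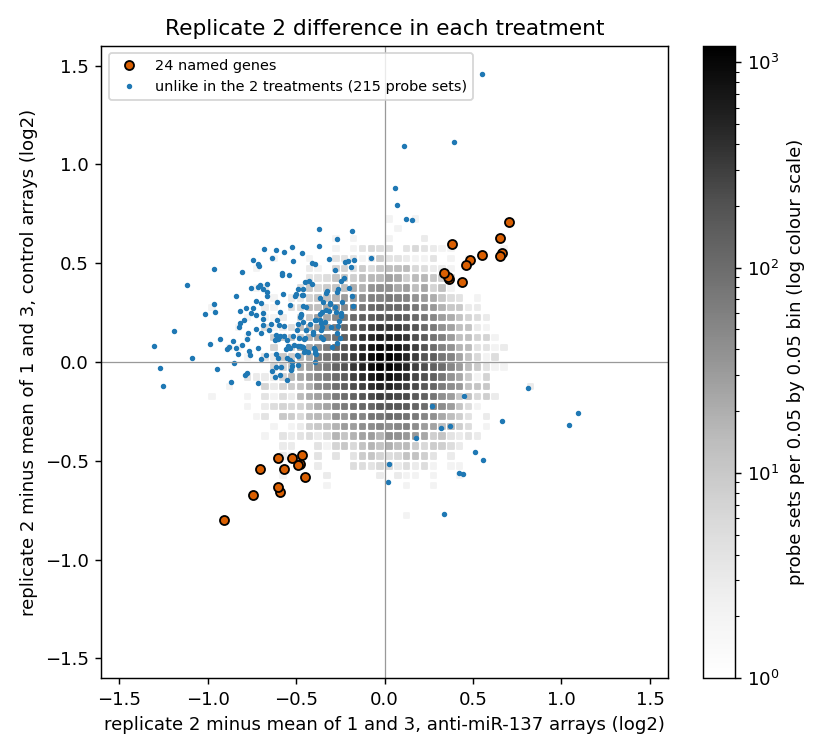
Replicate 2 minus the mean of replicates 1 and 3 (log2) within the anti-miR-137 arrays (horizontal axis) and within the control arrays (vertical axis); grey bins count probe sets on a log colour scale, orange points are the 24 genes named by rule and blue points the 215 probe sets called for a difference between treatments. The grey cloud shows no slope (correlation -0.0099), the orange points lie on the diagonal by their choice, and most blue points lie at the upper left, low in anti-miR-137 and level or high in control.

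The study's own comparison in the same fit, anti-miR-137 minus control with replicate number in the model, called 0 probe sets with either prior; 2605 (5.75%) had an unadjusted p under 0.05 with the constant one.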

How the data were processed

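Total RNA (100 ng, biotin label) of 6 samples was measured on 1-colour arrays. Per the submitters' processing notes, the authors used RMA in R 3.0.1. Each deposited number is the log2 signal of 1 probe set after background correction, normalization across arrays and summary over probes, so a shift of all transcripts together cannot be seen. Of 49495 probe sets, 102 were controls, 1333 had several symbols and 2782 none; 45278 were used, and 45208 of their gene identifiers matched RefSeq (GRCh38.p14).

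In R 4.3.3, limma 3.58.1 (lmFit, eBayes, two-sided, Benjamini-Hochberg over 45278 probe sets, threshold 0.05) was fitted with treatment and replicate number as terms (2 residual degrees of freedom), contrast replicate 2 minus the mean of replicates 1 and 3. Only the constant prior was tried on simulated data, in which the spread did not depend on level. The level-dependent prior and the treatment by replicate 2 term were not tried on simulated data. SEs come from the fit with the constant prior unless stated otherwise. Adjusted p-values of calls come from the prior with a trend on mean level. The number of arrays limits precision.

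Named by rule were 12 genes per direction with the smallest unadjusted p among separated probe sets at or above the 40th percentile, since none passed the threshold, and the 3 members of each list with the smallest p; all other genes were chosen after their values were seen. The members and the 25 lists were chosen with earlier results of these data known. Alternatives were other filters, normalizations, priors, array weights, models and leaving out each array. No promoter was searched for motifs, because no list had a called gene in the main model.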

Additional observations from a re-analysis of the deposited data

Results flagged for a closer look

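The replicate 2 difference was unlike in the 2 treatments for 215 probe sets, by the treatment by replicate 2 term in limma with the level-dependent prior, on 1 residual degree of freedom; 0 were called with the constant prior. Of these probe sets 2 were also called for replicate 2 itself, and both belong to *EGR1*. On the probe set with the 2-fold difference, the *EGR1* difference was 0.55 log2 units within anti-miR-137 and 1.46 within control arrays, unlike by -0.91 (limma adjusted p = 0.024), and on its brightest probe set it was unlike by -0.72. The part of the single arrays in these values was not tested.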

How the results depend on the processing

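For replicate 2, 18 of 20 alternatives left 0 probe sets called; the others were 8 with a filter at the 60th percentile and 74 with the trend prior. Added after seeing the data, the trend prior gave 44, 127, 91, 675, 54 and 57 with 1 array left out (the anti-miR-137 then the control array of replicates 1, 2 and 3; 71 of the 74 called again in the fit with 675), 76 with cyclic loess, 76 with quantile normalization and 70 with the 40th percentile filter. The 2805 probe sets at an unadjusted p under 0.05 became 1668 with the 60th percentile filter, 992 with the brightest probe set per gene, 1127 with the mean per gene, 1768 with RNA integrity in the model, and 1833 to 4178 with 1 array left out; fewer features are tested in the first 3, and the cause was not tested for the others. Replicate 3 minus replicate 1 gave 3 calls, 1498 with the 40th percentile filter and 3868 with the trend prior; the interaction gave 0 and 215. With no replicate block, treatment gave 0 calls and 1556 probe sets at an unadjusted p under 0.05, against 2605 with it. Deviations from the group means had a correlation across probe sets of 0.35 within replicate 1, -0.0099 within replicate 2 and 0.46 within replicate 3. The value for replicate 2 is the same statistic as the correlation of replicate 2 differences given above. Deviations of the 3 numbers sum to 0 in each group, so these values are not separate and cannot decide whether same-numbered arrays are paired. Of 462 alternatives for the 24 named genes, 438 kept direction and, where a model was refitted, side of the threshold. Another 22 passed it, and 2 reversed: the mean of the other probe sets was -0.053 for *FAM13B* and 0.080 for *ZNF557*. The 24 were selected with both replicate 2 arrays outside all others, which fixes their direction within each treatment. That choice also largely fixes direction with an array left out, so kept direction in these alternatives tests nothing. Of 275 list medians, 64 moved by more than the residual SD of the list's mean deviation, taken after replicate number and treatment were fitted.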
